A study of Mus musculus with 2 samples.

Results

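The nuclear genes of respiratory complex III, cytochrome c and cytochrome oxidase were described in newborn mouse heart. The set was a list of 37 gene symbols, looked up by gene identifier in a mouse annotation, and all 37 were found among the 43346 mouse genes of both deposited tables. It holds 9 structural genes of complex III, the cytochrome c gene Cycs, 16 structural genes of complex IV and its relatives, and 11 assembly genes of complex IV. RNA came from the whole heart of B6NCrl mice at postnatal day 0, from pup 1 for replicate 1 and pup 3 for replicate 2. Each library used 13 pg of the RNA above 200 nt, an input that the labels equate with 1 cell, by a Smart-seq protocol that amplifies full-length cDNA. No treatment is named, there is 1 group, and both libraries carry the same donor identifier. A library is therefore a very small aliquot of tissue RNA, and hearts, aliquots and amplifications cannot be told apart.

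Complex III takes electrons from ubiquinol and hands them to cytochrome c, a small soluble heme protein of the intermembrane space. Complex IV, cytochrome oxidase, takes them from cytochrome c and reduces oxygen to water. The catalytic cores contain proteins of the mitochondrial genome, and nuclear genes supply the remaining subunits and the factors that insert heme and copper. Heart muscle is rich in mitochondria and, like skeletal muscle, uses its own forms of some complex IV subunits.

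Levels are given as TPM, transcripts per 1000000 over mouse genes, which divides reads by the effective length of a gene. Where a sentence gives a couple of values without naming the library, replicate 1 comes first. Replicate 1 held 39671930 expected counts on mouse genes and replicate 2 held 32751851, and spike-in RNA took 2.40% and 1.27% of all counts. By counting error alone a gene with 0 counts may have had 3, which corresponds to 0.0756 and 0.0916 counts per 1000000, and since reads carry no molecular identifiers such limits do not cover amplification. Both libraries read 6 of 6 cardiomyocyte markers (1 TPM or more), with medians of 4120 and 5301 TPM. Fibroblast markers had medians of 214 and 157 TPM and endothelial markers 48.6 and 37.1 TPM, so these are values of mixed tissue. In such tissue, fewer cells of a type and less RNA per cell cannot be told apart.

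Nearly the whole set was read. Both libraries had 1 TPM or more for 36 of the 37 genes, against 28.4% of the 21461 nuclear protein-coding genes. Cox6b2, known as the testis form of its subunit, was the gene below that level in replicate 2. The 25 structural genes made up 3.77% and 4.81% of all TPM in replicates 1 and 2 (4.29 ± 0.74%, SD, n = 2). The 11 assembly genes took 0.0862% and 0.136% (0.111 ± 0.035%).

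**Figure D1:**
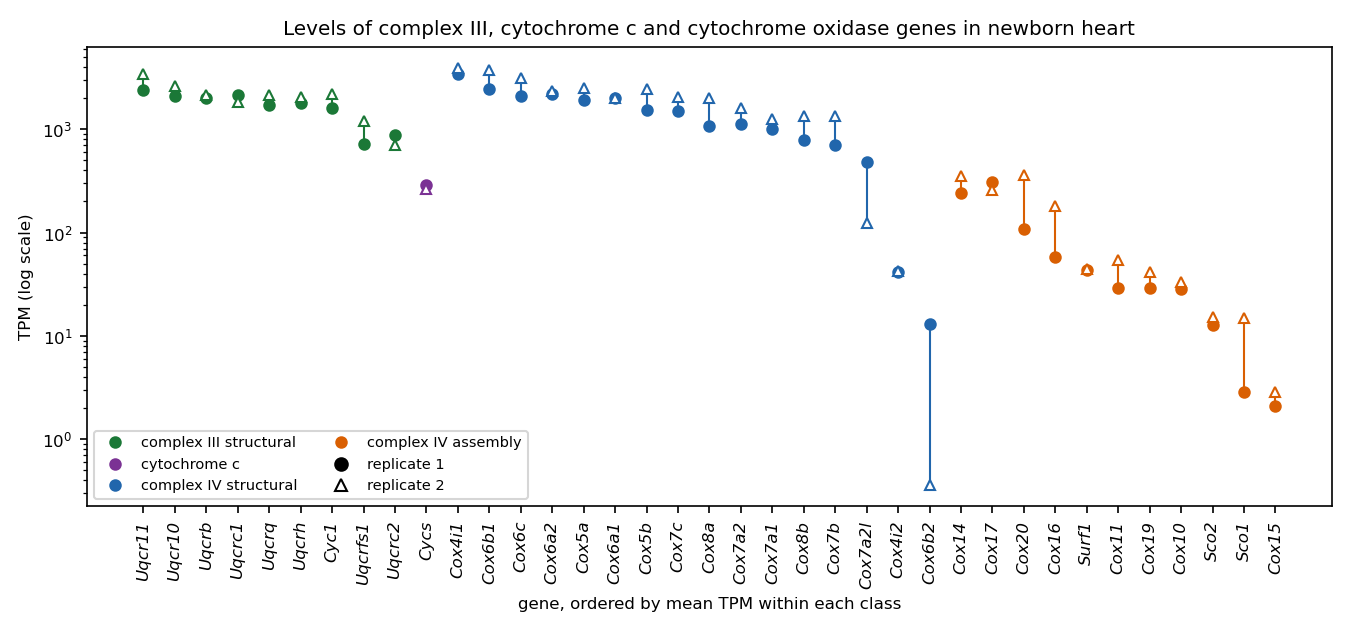
TPM of each of the 37 genes on a log axis, with 1 point per library and genes grouped by role. Most structural genes lie between 699.7 and 3919 TPM, and the assembly genes lie below them.

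Among the catalytic and core genes of complex III, Cyc1, which encodes the heme protein cytochrome c1, had levels of 1606 and 2171 TPM in replicates 1 and 2. Uqcrfs1, the Rieske iron-sulfur subunit, had 715 and 1209.6 TPM and differed most between the libraries within the complex, at 0.76 on the log2(TPM + 1) scale. Uqcrc1 and Uqcrc2 encode the large core proteins of the matrix side. Uqcrc1 had 2139.6 and 1834 TPM. Uqcrc2 had 871 and 699.7 TPM, and these core proteins were the 2 complex III genes that were lower in replicate 2, with log2 differences of −0.22 and −0.32.

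The small accessory genes of complex III lay close together. Uqcr11, at 2393 and 3405 TPM, was the highest gene of the complex, with a mean of 2899 ± 716 TPM. Uqcr10 had 2116 and 2622 TPM and Uqcrb, the ubiquinone-binding protein, had 1989 and 2148 TPM. Uqcrh, the hinge protein next to cytochrome c1, had 1789 and 2040.1 TPM, and Uqcrq had 1707 and 2136 TPM. All 5 accessory genes were higher in replicate 2, with log2 differences from 0.11 for Uqcrb to 0.51 for Uqcr11. Over the 9 genes the median was 1789 TPM in replicate 1 and 2136 TPM in replicate 2.

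Cycs, the somatic cytochrome c gene (chr6:50562563-50566538, minus strand, mm10), was listed at 287 and 263 TPM in replicates 1 and 2 (275 ± 17.1 TPM), well below the complexes on either side of it. All of it was assigned to Cycs-202, a transcript of 3123 nt. Annotated processed pseudogenes of Cycs, which are copies of its mRNA elsewhere in the genome, held a large part of the reads. These copies were looked for after the values had been seen. Gm10108 had 17864 and 17104 counts in replicates 1 and 2, or 2526 and 2850.4 TPM, on a gene of 319 bases. Cycs itself had 28071 and 21814 counts, so that 38.9% and 44.0% of the reads of Cycs and its copies lay on copies. The level with these reads included depends on the length they are divided by. Summed as listed, each copy at its own short length, Cycs and its 5 copies reached 2816 and 3121 TPM (2968 ± 216 TPM). That was above every complex III gene in replicate 1, and below Uqcr11 (3405 TPM) alone in replicate 2. With the same reads taken at the effective length of Cycs, they gave 470.5 and 470.2 TPM (470.3 ± 0.24 TPM), below every complex III gene. The log2 difference of the libraries was −0.13 for Cycs alone, 0.15 for the sum and close to 0 at the length of Cycs.

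Gm10108 lies on the minus strand at chr5:13121448-13121766 (mm10). It aligned with the Cycs transcript over 319 bases with 2 mismatches, G4A and G44A, where the Cycs base comes first and positions count from 1 at the 5′ end of the copy. Bases 1 to 100 of the copy and the matching Cycs bases, from the start codon on, show how little separates them, with the differing bases in capitals.
Cycs: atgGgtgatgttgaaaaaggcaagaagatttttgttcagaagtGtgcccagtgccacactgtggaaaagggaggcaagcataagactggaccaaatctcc
Gm10108: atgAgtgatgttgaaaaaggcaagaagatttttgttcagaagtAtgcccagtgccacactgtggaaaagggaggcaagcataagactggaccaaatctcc
Apart from these positions the stretches are the same letters. Over the rest of the copy the letters are the same as well, so reads from there cannot be told apart, and the level of Cycs is uncertain to that extent.

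Cox7c, a small subunit of complex IV, was the other gene with over 1% of its reads on copies. It was listed at 1510.0 and 2039 TPM. Its copy Gm12338, on the minus strand at chr11:75599763-75599954 (mm10), had 2651 and 4235 counts, or 883 and 1662 TPM. Over its 192 bases it has 0 mismatches with the Cox7c transcript, so 1 sequence stands for both, with no capitals because no base differs.
Cox7c and Gm12338: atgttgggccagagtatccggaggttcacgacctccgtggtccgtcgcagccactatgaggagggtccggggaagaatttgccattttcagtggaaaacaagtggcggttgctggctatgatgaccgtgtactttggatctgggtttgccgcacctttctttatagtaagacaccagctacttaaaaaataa
Copies held 12.1% of the reads of Cox7c and its copies in replicate 1 and 16.4% in replicate 2. With the copies added, the mean of Cox7c was 3071 ± 940 TPM as listed, or 2077 ± 509.7 TPM at its own effective length, beside 1774 ± 374 TPM without them. Over the whole set, 12 genes had 27 annotated copies at 90% identity or more, and copies held 2.63% and 2.70% of the reads.

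**Figure D2:**
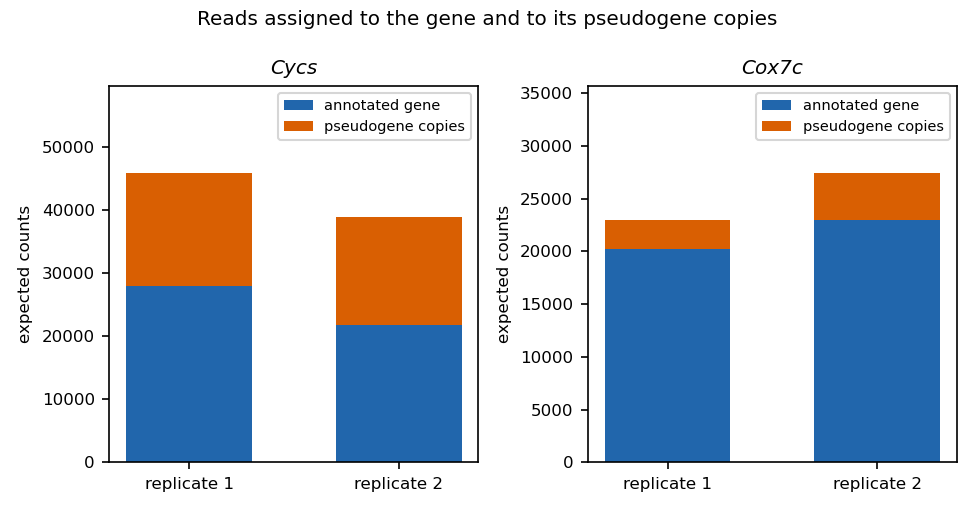
Expected counts (vertical axis) assigned to the annotated gene (blue) and to its pseudogene copies (orange), for Cycs (left) and Cox7c (right), with 1 stacked bar per library. The copies make up 38.9% and 44.0% of the Cycs bars and 12.1% and 16.4% of the Cox7c bars.

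In complex IV, Cox4i1 (chr8:120668222-120674207, plus strand, mm10), the largest of the nuclear-encoded subunits, was the highest gene of the set. Its levels were 3442 and 3919 TPM (3681 ± 337 TPM), rank 15 among nuclear protein-coding genes by mean. Cox5a and Cox5b, the subunits on the matrix face, had 1919 and 2479 TPM and 1532 and 2468 TPM. Cox6b1, which faces the cytochrome c docking side, had 2465 and 3756 TPM, and the single-span subunit Cox6c had 2088 and 3158 TPM. Each of these 5 genes was higher in replicate 2, by 0.19 for Cox4i1 to 0.69 for Cox5b on the log2 scale.

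Among the small subunits, Cox7b had 701 and 1332 TPM, a log2 difference of 0.93. The ubiquitous form Cox8a had 1078 and 2015 TPM (0.90). Both were higher in replicate 2 by less than 2-fold. Of the 25 structural genes, 22 had a mean over 500 TPM, and they spanned 701 to 3442 TPM in replicate 1 and 699.7 to 3919 TPM in replicate 2. That is a range of 4.91-fold and 5.60-fold within a library. The other 3 were Cox4i2, Cox6b2 and Cox7a2l.

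Complex IV has alternative subunits, and 3 pairs set a heart and muscle form against a ubiquitous form. Cox6a2, the muscle form (chr7:128205435-128206387, minus strand), had 2180.0 and 2323 TPM, and Cox6a1 had 2006 and 1998 TPM. Cox6a2 made up 52.1% and 53.8% of the TPM of this pair. The muscle form Cox7a1 (chr7:30184144-30186078, plus strand) had 1008 and 1258 TPM beside 1130.1 and 1605 TPM for Cox7a2, a share of 47.1% and 43.9%. Cox8b (chr7:140898945-140900446, minus strand) had 783 and 1328 TPM beside the Cox8a values above, a share of 42.1% and 39.7%. All 3 muscle forms thus stood within 2-fold of their ubiquitous partners in both libraries.

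A pair was described as different when both libraries gave its log2 ratio the same sign and the mean exceeded 2 SD. Cox6a2 over Cox6a1 (0.12 and 0.22) and Cox8b over Cox8a (−0.46 and −0.60) passed, and Cox7a1 over Cox7a2 (−0.17 and −0.35) did not. The SD per library of single genes at 1000 TPM or more was 0.44 on this scale, above the Cox6a2 and Cox7a1 differences. A ratio of a pair takes up the spread of both genes. Being above 0.44 therefore does not set the Cox8 pair apart from that spread. How length is treated mattered for the short genes: Cox7a1 spans 364 nt and Cox8b 362 nt, against 754 nt for Cox7a2 and 545 nt for Cox8a. With reads divided by full length, Cox7a1 over Cox7a2 had a mean of −0.51 ± 0.13 and Cox8b over Cox8a −0.70 ± 0.10. In counts per 1000000 with no length division they had −1.56 ± 0.13 and −1.29 ± 0.10, and the muscle shares were 26.5% and 24.1% for Cox7a1 and 30.0% and 28.0% for Cox8b. The Cox7a1 pair passed the rule on both of these scales. The longest stretch that the transcripts of a pair had in common was 10 bases for the Cox8 pair and 12 bases for the Cox6a and Cox7a pairs.

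**Figure D3:**
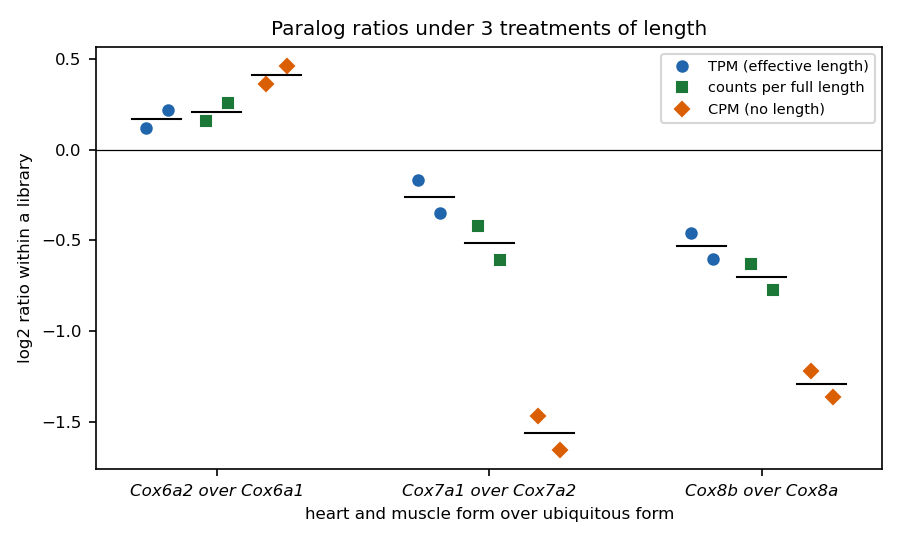
Log2 ratio of the muscle over the ubiquitous form within each library, for 3 pairs and 3 treatments of length (TPM in blue, counts per full length in green, counts per 1000000 in orange), with replicate 1 at the left of each couple of points and a line at the mean. The Cox7a1 pair moves from a mean of −0.26 in TPM to −1.56 in counts, and Cox6a2 over Cox6a1 stays above 0 in each treatment.

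Skeletal muscle and brown fat also use Cox7a1 and Cox8b, so their markers are given beside these values. Of the skeletal muscle markers Myh3, Myh8, Tnnt3 and Mylpf, the first 3 had 0 counts in both libraries, while 22.1 TPM of Mylpf were read in replicate 1 and 0 in replicate 2. The brown fat markers Ucp1 and Adipoq had 0 counts in both libraries. Cidea had 90.6 and 54.8 TPM and Ppargc1a, a coactivator of mitochondrial genes that the heart also uses, had 109 and 43.6 TPM.

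The remaining forms were below their partners in both libraries, least so Cox7a2l in replicate 1. Cox4i2, a form known for lung and for low oxygen, had 41.8 and 42.3 TPM from 847 and 727 counts, and its log2 ratio to Cox4i1 was −6.42 ± 0.12 (85.4-fold lower). This was the steadiest of the large pair differences. Cox6b2 had 13.1 TPM from 185 counts in replicate 1 and 0.358 TPM from 3 counts in replicate 2, with log2 ratios to Cox6b1 of −7.45 and −11.43. In counts alone its log2 ratio to Cox6b1 in replicate 2 was −13.77, with an exact 95% interval from −16.04 to −12.22 for counting error. Cox7a2l, known for joining complexes III and IV into supercomplexes (chr17:83501918-83517330, minus strand), had 483 and 124 TPM, and its ratio to Cox7a2 (−1.23 and −3.68) varied too much to pass the rule. The testis paralogs Cox7b2 and Cox8c had 0 counts in both libraries, and Cyct, the testis cytochrome c gene, had 306 counts (17.0 TPM) in replicate 1 and 0 in replicate 2.

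Promoter sequence was available from RefSeq (GRCm38.p6, the assembly of mm10) for 28 of the 37 genes, from 250 bases before to 50 bases after the annotated start. Cox6a2, Cox4i1, Cox4i2, Cox6c, Cox17, Cyc1, Uqcrb, Uqcrc2 and Uqcrq had no entry. The Cox8 and Cox7a pairs are the muscle and ubiquitous pairs with both promoters available. Their forms stood within 2-fold in TPM. They were also shown because their promoters differ in CpG count and motifs, so that difference was part of the choice. Capitals mark the ETS core CCGGAA, read on either strand, and the TATA motif TATAAA.
Cox8b: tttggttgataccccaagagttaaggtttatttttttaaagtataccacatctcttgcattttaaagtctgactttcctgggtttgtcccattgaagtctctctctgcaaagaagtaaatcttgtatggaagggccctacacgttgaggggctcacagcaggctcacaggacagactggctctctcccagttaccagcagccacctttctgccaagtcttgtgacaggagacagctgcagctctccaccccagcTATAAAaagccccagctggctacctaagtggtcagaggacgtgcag
Cox8a: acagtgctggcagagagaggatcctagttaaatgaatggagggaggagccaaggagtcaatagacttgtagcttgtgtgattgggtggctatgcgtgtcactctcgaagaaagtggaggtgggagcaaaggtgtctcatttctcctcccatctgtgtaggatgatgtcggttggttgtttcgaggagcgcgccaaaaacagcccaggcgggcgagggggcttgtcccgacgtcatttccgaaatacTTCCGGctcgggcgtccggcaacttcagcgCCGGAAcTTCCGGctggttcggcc
Cox7a1: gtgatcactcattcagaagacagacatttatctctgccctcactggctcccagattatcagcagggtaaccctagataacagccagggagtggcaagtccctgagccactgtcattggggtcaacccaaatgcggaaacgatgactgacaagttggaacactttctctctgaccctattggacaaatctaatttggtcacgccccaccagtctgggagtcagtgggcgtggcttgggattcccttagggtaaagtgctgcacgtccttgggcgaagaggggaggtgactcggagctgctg
Cox7a2: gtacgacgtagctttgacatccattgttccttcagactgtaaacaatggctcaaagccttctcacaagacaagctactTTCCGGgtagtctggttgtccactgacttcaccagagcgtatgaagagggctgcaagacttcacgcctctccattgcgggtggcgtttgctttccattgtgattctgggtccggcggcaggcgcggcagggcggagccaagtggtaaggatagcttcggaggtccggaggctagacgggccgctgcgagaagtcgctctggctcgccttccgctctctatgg
They lie at chr7:140900397-140900696 (minus strand) for Cox8b, chr19:7217567-7217866 (minus) for Cox8a, chr7:30183921-30184220 (plus) for Cox7a1 and chr9:79759804-79760103 (minus) for Cox7a2. The muscle forms Cox8b and Cox7a1 had 2 and 7 CpG dinucleotides in this window, and the ubiquitous Cox8a and Cox7a2 had 19 and 20. The median was 19 over the members and 13 over all protein-coding promoters, of which 38.5% had 7 or fewer. Cox7b, which has no muscle form in the set, had 5. Cox8b held TATAAA 4 bases after its annotated start and no ETS core. Cox8a held the ETS core at 3 places and Cox7a2 at 1. Cox7a1 held neither motif.

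Over the set, 15 of the 28 genes (53.6%) had an ETS core in the window, against 20.9% of 17492 protein-coding genes. It was found in 7 of 17 structural and 8 of 10 assembly genes. The ETS core itself holds a CpG, and 75.9% of member promoters had 15 or more CpG, against 46.8% of all protein-coding promoters. Whether the share with an ETS core goes with CpG count was not tested. The NRF1 half-site core TGCGCA was in 3 of 28 (10.7%), against 11.0% of protein-coding genes, and the E-box CANNTG, searched on both strands like the rest, in 71.4% against 72.1%. TATAAA was in 2 genes, Cox8b and Cox10 (7.14%, against 14.8%), and the MEF2 core TAAAAATA in 0, against 2.50%. CANNTG can overlap other motifs, and a match is a description of letters.

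The assembly genes of complex IV stood well below most structural genes. Their medians were 28.9 and 44.7 TPM, beside 1320 and 2007 TPM for the 16 complex IV structural genes. The 25 structural genes of the next comparison include 9 of complex III. Their median was above the assembly median by 5.80 and 5.51 on the log2 scale (5.65 ± 0.20), or 55.6-fold and 45.6-fold. In replicate 1, 23 of the 25 structural genes were above every assembly gene, and in replicate 2, 22 were. Without division by length the log2 ratio was 4.31.

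Copper delivery genes ran from near the bottom of the assembly genes (Sco1) to near the top (Cox17). Cox17, which carries copper to the assembly site, had 305 and 258 TPM. Cox19 had 28.9 and 41.2 TPM and Cox11, which inserts copper into the mt-Co1 protein, had 28.8 and 54.6 TPM. Sco1 and Sco2 hand copper on to the mt-Co2 protein. Sco1 had 2.83 TPM from 212 counts in replicate 1 and 14.9 TPM from 1013 counts in replicate 2. Sco2 had 12.6 and 15.2 TPM, so Sco2 over Sco1 was 1.83 in replicate 1 and 0.03 in replicate 2, and the mean of this pair (0.93 ± 1.27) was within its spread.

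Heme A is made by the products of Cox10 and Cox15. Cox10 had 28.2 and 33.1 TPM, while its counts were 2566 and 718. In replicate 1 all of it was assigned to the coding Cox10-201 of 2915 nt. In replicate 2 the non-coding Cox10-202 of 706 nt led, with 70.3% of the counts and 91.6% of the TPM, so the log2 difference was 0.22 in TPM and −1.52 in counts per 1000000. Cox15 was the lowest assembly gene, with 2.08 and 2.83 TPM from 214 and 364 counts.

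Genes for the early steps included the highest of replicate 2, Cox20. Cox14, which acts with newly made mt-Co1 protein, had 243 and 355 TPM. Cox20, a chaperone of the mt-Co2 protein, had 109 and 357 TPM, and Cox16 had 58.3 and 180.1 TPM. Surf1, whose human counterpart is mutated in Leigh syndrome, had 43.2 and 44.7 TPM. Cox20 and Cox16 were above 2-fold apart between the libraries, and Cox14 and Surf1 were not.

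Another 25 genes of complex III and IV assembly or regulation filled in this picture. Their medians were 52.5 and 42.9 TPM, and 21 of 25 were read in both libraries (28.4% of nuclear protein-coding genes). Ndufa4, a subunit once assigned to complex I and since placed in complex IV, led them at 2050.5 and 2863 TPM, which is the level of the structural genes. The complex III assembly factor gene Uqcc2 followed at 499 and 446 TPM and Higd2a, an assembly factor of complex IV, at 290 and 435 TPM. Several were read in 1 library alone: Coa4 had 1643 counts in replicate 1 and 0 in replicate 2, Taco1, a translation activator for mt-Co1, had 1742 and 0, and Coa7 had 1 and 1219. Averages of 5 TPM or more were reached by 24, of which 8 were higher in replicate 2 and 16 in replicate 1, against 50.2% of all genes higher in replicate 2, with a median log2 difference of −0.16. Over 2-fold apart were 10 of the 24, against 54.6% of all genes.

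The mitochondrially encoded partners were above every nuclear member. mt-Cytb, the cytochrome b of complex III, had 12633 and 9856 TPM, 7.06-fold and 4.61-fold the median nuclear complex III gene. mt-Co1, mt-Co2 and mt-Co3, the catalytic core of complex IV, had 14083 and 8607 TPM, 10178 and 8457 TPM, and 5415 and 4876 TPM. Against the median nuclear complex IV gene, mt-Co1 stood at 10.7-fold and 4.29-fold its level. All 4 were lower in replicate 2, from −0.15 for mt-Co3 to −0.71 for mt-Co1 on the log2 scale, while the nuclear medians were higher there. Nuclear copies of mitochondrial DNA held 85.3% and 84.3% of the reads of mt-Co3 and its copy Gm28437, 66.4% and 48.1% for mt-Co2 and 18.0% and 27.4% for mt-Co1. For mt-Cytb its copy held 0 counts. The levels of the 3 mt-Co genes, and the folds from them, are uncertain for that reason.

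The libraries were compared over 36 members that averaged at least 5 TPM, which leaves out Cox15. Higher in replicate 2 were 29 of the 36, against 50.2% of the 8266 mouse genes at that level. Over 2-fold apart were 5 of the 36, against 54.6%. Abundant genes differed less between the libraries in general, so the members are set beside genes of their own level. Among the 20 members at 1000 TPM or more, 18 were higher in replicate 2 and 0 were over 2-fold apart, against 61.6% and 9.93% of the 151 genes at that level. At 100 to 1000 TPM, 3 of 8 members were over 2-fold apart (21.4% of all genes), and at 5 to 100 TPM, 2 of 8 (60.7%). In these ranges 4 of 8 and 7 of 8 members were higher in replicate 2. The share of all genes higher there was not computed for these ranges, so a lean of the members cannot be judged in them. All genes had median log2 differences of −0.03 at 100 to 1000 TPM and 0.007 at 5 to 100 TPM.

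The 5 genes over 2-fold apart fell in both directions. Lower in replicate 2 were Cox6b2 (−3.37; −5.67 in counts per 1000000 without a pseudocount, exact 95% interval −7.96 to −4.10) and Cox7a2l (−1.95), the latter from 15351 counts in replicate 1 and 3339 in replicate 2. Higher there were Cox16 (1.61), Cox20 (1.70) and Sco1 (2.05), 3 assembly genes. After these, the lowest log2 difference among structural genes was −0.32, for Uqcrc2. The SD per library of genes at 100 to 1000 TPM, the range of Cox7a2l, was 0.65, and a difference between libraries takes up the spread of both. The structural genes had a median difference of 0.32, with 20 of 25 higher in replicate 2, and the assembly genes 0.52, with 9 of 10. Complex I subunit genes were higher in replicate 2 for 29 of 36, with a median of 0.26, and ATP synthase genes for 12 of 16, with a median of 0.28. Cardiomyocyte markers were higher in replicate 2 for 6 of 6, with a median of 0.44. Fibroblast and endothelial markers had medians of −0.33 and −0.53, with 1 of 4 higher in each (Pdgfra at 0.48 and Cdh5 at 0.64). Smooth muscle and pericyte markers had a median of 0.45, with 2 of 3 higher, among them Rgs5 at 1.77. The part of cell makeup in the differences of the members was not tested. Each is a difference between 2 libraries with no replicate check.

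**Figure D4:**
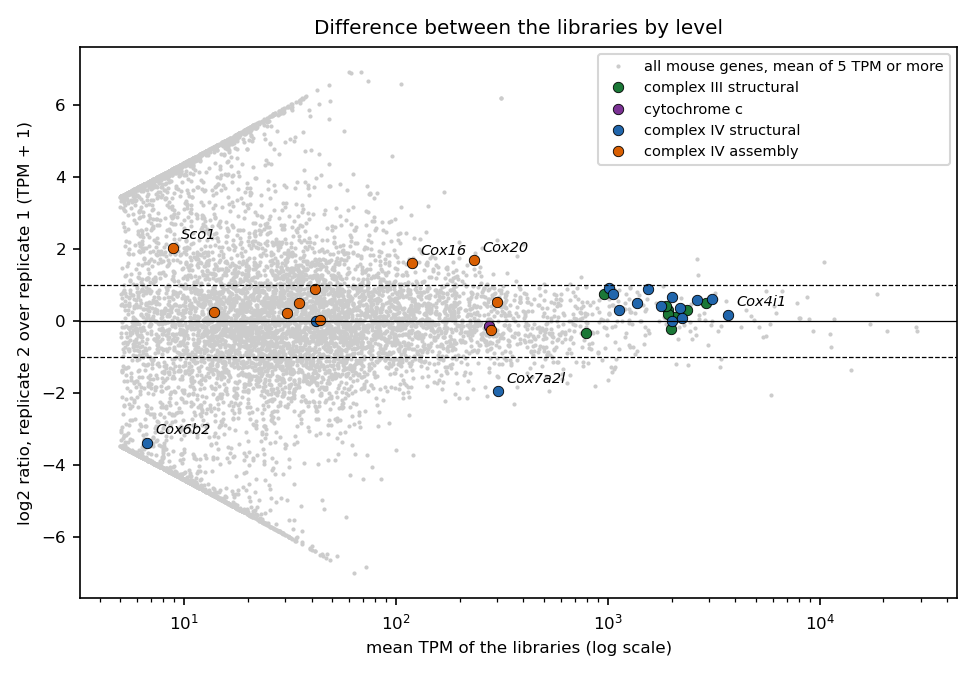
Log2 difference of replicate 2 over replicate 1 against mean TPM (log axis) for mouse genes averaging at least 5 TPM in grey and the 36 members in colour, with lines at 2-fold. The 20 members at 1000 TPM or more lie within 2-fold, and Cox6b2 and Cox7a2l lie below.

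In counts per 1000000 the sign turned for 4 of the 36, Cox6a1, Cox10, Cox17 and Surf1, against 4.96% of all genes at that level. On that scale 7 members were over 2-fold apart, with Cox7b and Cox10 added. The share of all genes over 2-fold apart was not computed in counts per 1000000, so these 7 have no background beside them. TMM and DESeq2 factors are constants of −0.07 and −0.11 on this scale, so they turn only differences smaller than themselves. These are Cox4i2 (0.02) and Surf1 (0.05) for both, and Cox6a2 (0.09) for DESeq2. The length assigned to the gene differed by over 10% between libraries for 7 of 36 members, against 37.3%, and they include Cox10, Cox16, Cox7b and Surf1. The deposited bounds of the posterior mean TPM did not overlap for 32 of 36 members, against 90.4%. The 4 whose bounds overlapped were Cox4i2, Cox6a1, Sco2 and Surf1.

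**Figure D5:**
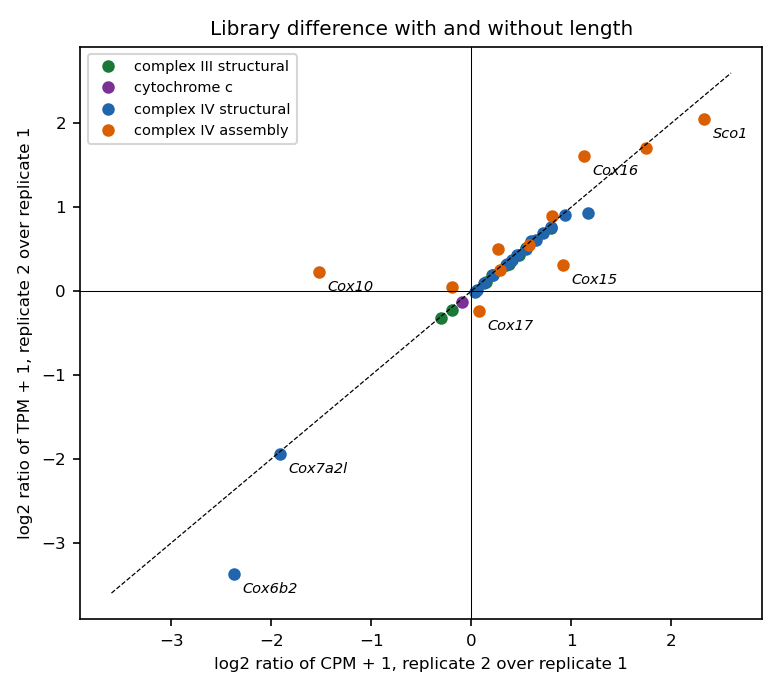
Log2 difference of replicate 2 over replicate 1 in TPM (vertical axis) against that in expected counts per 1000000 (CPM, horizontal axis) for the 37 members, coloured by role, with the diagonal dashed. Most points lie near the diagonal, and Cox10 lies off it, at 0.22 in TPM and −1.52 in counts.

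Leading transcripts were compared by the deposited share of TPM, which is divided by length, and by counts. Of the 26 members with more than 1 listed transcript, 19 had 1 leader common to both libraries by TPM share, and 21 did by counts. For those averaging at least 5 TPM this was 18 of 25 by TPM share, against 63.2% of 5073 mouse genes. The share rises with level: at 1000 TPM or more it was 11 of 12 members, against 96.8% of genes, at 100 to 1000 TPM 5 of 6 (90.4%) and at 5 to 100 TPM 2 of 7 (57.1%). Of the structural genes 14 of 16 had 1 leader, and of the assembly genes 4 of 9. These classes differ in level, and the difference between them was not tested.

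Length division decided the leader of some subunit genes. For Cox7b the intron-retaining Cox7b-203 led by TPM share in replicate 1 (54.0%) and the coding Cox7b-201 in replicate 2 (53.9%), while by counts Cox7b-201 led in both (60.1% and 71.2%). For Cox5b the short non-coding Cox5b-205 led by TPM share (55.8% and 56.8%), and the coding Cox5b-204 by counts (67.6% and 68.1%). In the assembly genes Sco1, Cox16 and Surf1 the leader differed between the libraries on both scales. By counts, Sco1 had Sco1-201 (100%) in replicate 1 and the non-coding Sco1-204 (78.3%) in replicate 2. Cox16 had Cox16-202 (86.0%) and Cox16-206 (47.3%). Surf1 had Surf1-209 (45.5%), of a class subject to decay, and the coding Surf1-201 (58.3%).

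Exons of 14 members overlap another gene, for 12 of them on the opposite strand, and whether counting used the strand is not stated. Sco2 shares 829 exon bases with Ncaph2, which had 9034 and 3435 counts beside 426 and 435 for Sco2. Cox20 shares 804 bases with Hnrnpu (1717 and 1864 counts) and Cox11 shares 688 bases with Tom1l1 (1334 and 2.68 counts). Cox15 shares 444 bases with Entpd7, which had 1 and 573 counts beside 214 and 364 for Cox15. Surf1 shares 137 bases with Surf2 (13.7 and 580 counts). On the same strand, Cox16 shares 2130 bases with Gm20498 (764 and 334 counts) and Sco2 shares 856 bases with Tymp (26.0 and 291 counts). The levels of these assembly genes are uncertain for that reason.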

How the data were processed

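The 2 libraries are RNA sequencing of newborn mouse heart, and p-values were not computed, since they form 1 group. The authors deposited expected counts, TPM and transcript shares in percent per gene or transcript, as the file headers name them. Per the deposited notes, the assembly was mm10 and the annotation GENCODE M4. The name of the aligner or quantifier is not given in the sources used here. TPM was rescaled to 1000000 over mouse genes. Symbols, types and positions came from GENCODE M21, matched by gene identifier. Nuclear protein-coding genes served as background for the share of genes read and for ranks, and protein-coding genes for promoters. Comparisons between the libraries, of level ranges and of leading transcripts used all mouse genes. Log2 differences used log2(TPM + 1), and low genes are understated by it. Genes were read at 1 TPM, compared at a mean of 5 TPM and called apart beyond 2-fold. The log2 ratio and the 2-fold call were tried on simulated counts with counting error alone. The simulation had no amplification noise and no length differences between libraries, so it does not cover these.

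The members, lists and pairs were chosen with earlier results of these data known. Named genes are the 37 members and the listed genes. Pseudogenes and overlapping genes were chosen after their values were seen. Copies were found with BLAST 2.17.0, at 90% identity over 50% of the copy. TMM factors (edgeR 4.0.16) and size factors (DESeq2 1.42.0) used expected counts rounded to whole numbers. Calculations used Python 3.11.15, numpy 2.4.6, pandas 2.3.3 and R 4.3.3. Alternatives were the pseudocount (0.1), no filter, counts per 1000000, full length, posterior means, other totals, these factors and leaving out each replicate.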

Additional observations from a re-analysis of the deposited data

How the results depend on the processing

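Of 63 alternative values of 15 results, 51 kept their direction and moved by less than the spread between libraries, or stayed within 1.5 times for counts. They leave out 20 values without a library, since with 2 libraries 1 of them is always within 1 SD of the mean, and the report gives each library's value. The spread of the Cox6b2, Cox7a2l and Sco2 pairs was 2.81, 1.73 and 1.27 in log2. Staying within so wide a spread says little for these pairs. Without division by length, the log2 ratio of structural over assembly medians was 4.31, Cox6a2 over Cox6a1 0.41, Cox7a1 over Cox7a2 −1.56 and Cox8b over Cox8a −1.29, and Sco2 over Sco1 turned to −0.14. Division by full length gave −0.51 for Cox7a1 over Cox7a2 and −0.70 for Cox8b over Cox8a. With genes of a mean of 5 TPM or more, structural over assembly was 5.42, because Cox15 drops out. Of nuclear protein-coding TPM, structural genes held 5.69% and assembly genes 0.147%, and of expected counts 2.06% and 0.0562%, where another total or scale sets the value. Adding the listed TPM of pseudogene copies to their members, an alternative chosen after seeing the data, left 30 members higher in replicate 2 and 5 over 2-fold apart, with a log2 ratio of 5.70 and a structural share of 4.43%. No paired analysis was possible because there is 1 group. By expected counts in place of TPM shares, a choice added after seeing the data, 21 members had 1 leading transcript in both libraries, against 19. Few counts leave a wide interval for Cox6b2 (log2 −7.96 to −4.10 between the libraries).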
